A study of Mus musculus with 6 samples.

Results

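The Cyp2d genes encode cytochromes P450 of family 2, subfamily D, and this report follows their 8 rows in a table of colon RNA sequencing counts from control mice and from mice exposed for a long time to PFOA (perfluorooctanoic acid, a persistent fluorinated surfactant). The rows were taken by name, as every row with a symbol that starts with Cyp2d and a digit, pseudogenes included, which gave 8 of 2033 listed rows. They are Cyp2d9, Cyp2d10, Cyp2d12, Cyp2d26 and Cyp2d34, which code for enzymes, and the pseudogenes Cyp2d34-ps, Cyp2d37-ps and Cyp2d41-ps. The control group and the PFOA group had 3 libraries each, from colon tissue. The labels mention 6 frozen mice per group without tying mice to libraries. The sources used here do not give strain, sex, age, dose, exposure time or part of the colon. The p-values measure the spread between libraries, a spread that may be technical.

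The table lists rows picked for differing between control and PFOA, and this sets how the Cyp2d values can be read. All 1608 rows with enough counts for edgeR's quasi-likelihood test passed it (100% of tested rows; largest adjusted p = 0.0408), with 50% of tested rows lower and 50% higher in PFOA. A Cyp2d row that passed it thus adds nothing by passing. Its direction, its size and its place among the other rows are description. Of genes that have no row nothing can be said. Listed counts summed to between 1771120 and 2269892 per library, which is not the sequencing depth. Slc26a3, the chloride-bicarbonate exchanger of the colon surface, was counted in every library but was itself 4.62-fold lower in PFOA. It had control counts of 44864, 60351 and 56990, against 18783, 6770 and 7256 under PFOA. Krt20 and Epcam, general markers of the colon epithelium, have no row.

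P450 enzymes hold a haem group whose iron activates oxygen, so that a hydroxyl group can be put on a drug, a toxin, a steroid or a fatty acid. They sit in the endoplasmic reticulum and take electrons from cytochrome P450 reductase (Por). Subfamily 2D is best known from the human enzyme CYP2D6, which metabolises many drugs. In the mouse the subfamily has grown by gene duplication into a cluster of genes and pseudogenes on chromosome 15, and several members are enzymes of the liver, with Cyp2d9 known as a male-predominant steroid hydroxylase there.

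GENCODE M21 (mm10) annotates 18 Cyp2d genes on chromosome 15, of which 8 are protein-coding and 10 are pseudogenes. Among the protein-coding genes 5 have a listed row, and the 3 others, Cyp2d11, Cyp2d22 and Cyp2d40, do not. Among the pseudogenes 3 have a row. The rows span 391.4 kb, from 82402846 to 82794294 (mm10). In the order of the chromosome they are Cyp2d10 (82402846 to 82407195), Cyp2d9 (82433437 to 82456845), Cyp2d12 (82554216 to 82560403), Cyp2d34-ps (82608921 to 82612915), Cyp2d34 (82615965 to 82621147), Cyp2d41-ps (82634552 to 82782162), Cyp2d37-ps (82684770 to 82693148) and Cyp2d26 (82790101 to 82794294). Cyp2d9 and Cyp2d12 lie on the plus strand and the 6 other rows on the minus strand.

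Several of these rows hold more than their name says. The Cyp2d41-ps row is an assembled locus of 147.6 kb that covers the annotated Cyp2d35-ps to Cyp2d41-ps, with Cyp2d40 and the whole Cyp2d37-ps row inside it. The rows of Cyp2d9, Cyp2d12 and Cyp2d41-ps merge further gene names, and the deposited table types the rows of Cyp2d10, Cyp2d12 and Cyp2d41-ps as miRNA, although they cover P450 genes. The sources used here do not give strand use or the treatment of reads that match several places, so reads of near-identical members can be counted for each other.

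How alike the members are bears on that sharing. The cysteine that holds the haem iron lies in a short signature near the end of every P450, and its 30 coding bases are shown here to make the likeness visible, from GENCODE M21 transcripts, with the cysteine codon in capitals.
Cyp2d10: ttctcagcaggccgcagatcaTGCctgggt
Cyp2d34: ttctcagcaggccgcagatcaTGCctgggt
Cyp2d9: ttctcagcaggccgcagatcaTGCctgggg
Cyp2d26: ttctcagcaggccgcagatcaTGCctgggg
Cyp2d41-ps: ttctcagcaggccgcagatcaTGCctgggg
Cyp2d12: ttttcagcaggccgcagatcaTGCctgggg
Cyp2d10 and Cyp2d34 were identical over these 30 bases, Cyp2d9, Cyp2d26 and Cyp2d41-ps each differed from Cyp2d34 at 1 base, and Cyp2d12 at 2 bases. The longest transcripts of Cyp2d34-ps and Cyp2d37-ps held no match to the signature.

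Over whole coding sequences Cyp2d26 was the most divergent of the 5 listed enzyme genes. It shared 81.3% to 82.2% of aligned bases with the 4 others, while those 4 shared 88.8% to 92.5% with each other, the closest pair being Cyp2d10 and Cyp2d9. The coding sequences of Cyp2d9, Cyp2d10, Cyp2d12 and Cyp2d34 are each 1515 bases long and that of Cyp2d26 is 1503 bases. Of all windows of 50 bases in the annotated transcripts of a gene, the share that also occurs without a mismatch in another Cyp2d gene was 35.2% for Cyp2d10, 18.7% for Cyp2d41-ps, 16.7% for Cyp2d9, 9.49% for Cyp2d26, 7.31% for Cyp2d34, 6.97% for Cyp2d12, 2.37% for Cyp2d37-ps and 1.5% for Cyp2d34-ps. The gene that shared the most windows with Cyp2d10 was Cyp2d11 (22.9% of the Cyp2d10 windows), which has no row. For Cyp2d41-ps it was Cyp2d40 (10.2% of the Cyp2d41-ps windows), which lies inside the Cyp2d41-ps row. For windows of 100 bases the share was 11.7% for Cyp2d10, 5.27% for Cyp2d9 and 0.319% for Cyp2d26. The sources used here do not give the read length.

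**Figure D1:**
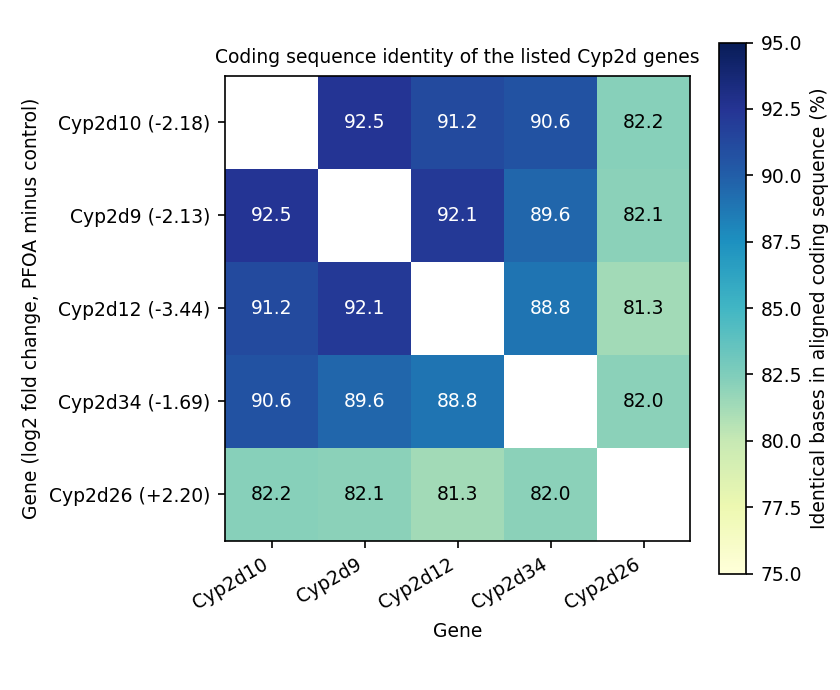
Percent of identical bases in aligned coding sequences (colour scale, %) for each pair of the 5 listed Cyp2d enzyme genes, with each gene's log2 fold change (PFOA minus control) in its row label. Cyp2d26, the gene with a positive value (2.20), has identities of 81.3% to 82.2%, below the 88.8% to 92.5% among the 4 genes with negative values.

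Promoters of 3 listed members are in the RefSeq table (GRCm38.p6), and the 250 bases before each start are printed to compare the members that fell with the member that rose. Capitals mark every match to a motif searched on both strands, namely TATAAA (the box of that name near many starts), TTCCGG (the core bound by ETS factors), CCAAT and AGGNCA repeated after 1 base of any kind (a direct repeat of the nuclear receptor core, called DR1). The window of Cyp2d10 is chr15:82407195-82407444 (minus strand), that of Cyp2d9 is chr15:82452127-82452376 (plus strand) and that of Cyp2d26 is chr15:82794246-82794495 (minus strand).
Cyp2d10: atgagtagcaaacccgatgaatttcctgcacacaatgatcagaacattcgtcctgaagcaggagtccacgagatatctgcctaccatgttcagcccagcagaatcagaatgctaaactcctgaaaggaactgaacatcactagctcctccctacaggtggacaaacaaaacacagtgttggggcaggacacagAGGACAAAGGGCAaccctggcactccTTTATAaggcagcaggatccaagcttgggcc
Cyp2d9: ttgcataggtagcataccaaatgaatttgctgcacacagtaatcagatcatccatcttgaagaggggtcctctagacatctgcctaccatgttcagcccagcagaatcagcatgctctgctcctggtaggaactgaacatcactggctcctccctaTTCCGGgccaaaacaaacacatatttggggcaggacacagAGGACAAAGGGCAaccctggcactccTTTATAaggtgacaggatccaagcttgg
Cyp2d26: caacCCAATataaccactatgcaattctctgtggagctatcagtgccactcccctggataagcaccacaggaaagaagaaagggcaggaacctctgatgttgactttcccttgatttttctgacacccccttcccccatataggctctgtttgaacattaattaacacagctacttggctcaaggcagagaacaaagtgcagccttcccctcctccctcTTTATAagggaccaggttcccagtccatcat
Cyp2d10 and Cyp2d9 shared 85.0% of aligned bases, whereas Cyp2d26 shared 60.2% with Cyp2d10 and 62.6% with Cyp2d9. All 3 windows hold the TATA box letters on the opposite strand (TTTATA as printed) shortly before the start, at bases -31 to -26 in Cyp2d10 and Cyp2d26 and -28 to -23 in Cyp2d9 (12.4% of 32851 promoter windows of this length hold it). The DR1 letters occur in Cyp2d10 (-57 to -45) and Cyp2d9 (-54 to -42) but not in the Cyp2d26 window, against 0.338% of all windows. This looser spelling was chosen after the sequences were seen, so neither its share of all windows nor its absence from Cyp2d26 carries weight. It also occurs in the window of Cyp2d40 (-117 to -105), which is not printed. The stricter repeat of AGGTCA (0.0335% of all windows) and CAAAGTCCA (HNF4; 0.384%) occur in none of the 3 printed windows. The ETS core occurs in Cyp2d9 (-94 to -89; 12% of all windows) and CCAAT in Cyp2d26 (-246 to -242; 33.8% of all windows). These matches describe letters in a window and show no binding.

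In the colon counts 7 of the 8 Cyp2d rows fell in PFOA and Cyp2d26 rose, at an edgeR adjusted p under 0.05 (50% of tested rows were called lower and 50% higher). In none of the 8 rows did the control and PFOA libraries overlap in CPM (counts relative to the listed total of the library, scaled by TMM, edgeR's trimmed mean of M values), as in 98% of tested rows (49.7% with PFOA below control and 48.3% with PFOA above). The median log2 fold change of the 8 rows was -2.09, against -0.03 over all tested rows and -1.80 over all tested rows that fell. Fold values below are ratios of mean CPM, and log2 ratios (PFOA over control) are edgeR's fitted log2 fold changes, given ± SE with n = 3 per group.

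**Figure D2:**
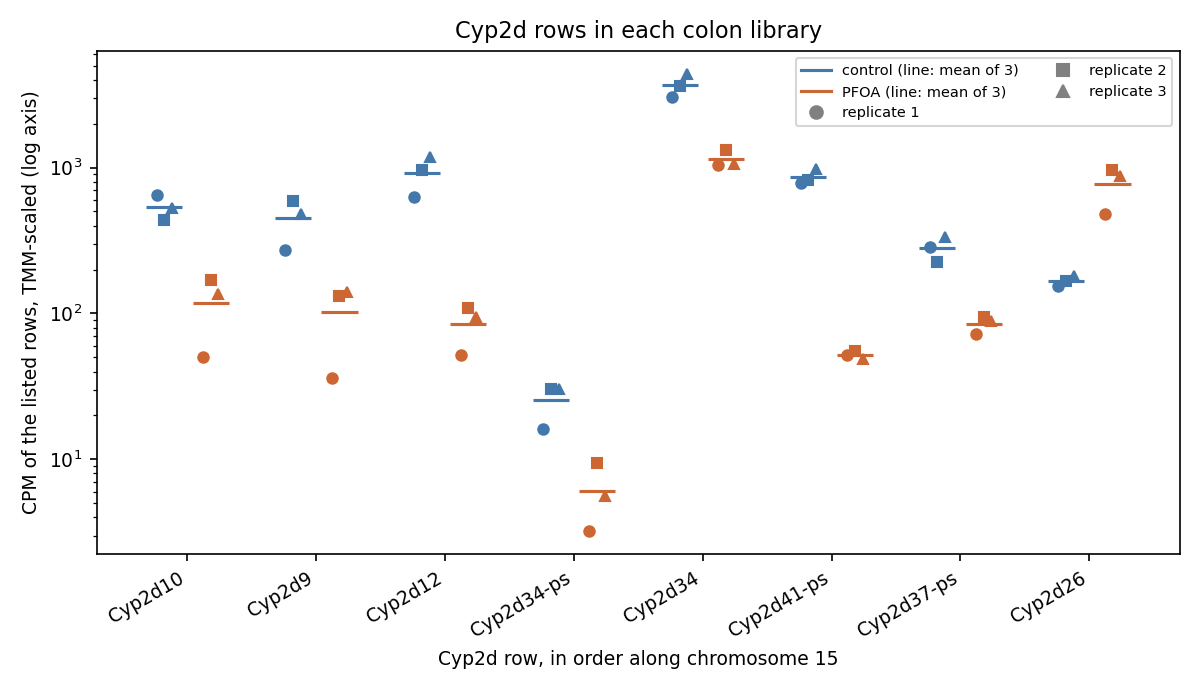
TMM-scaled CPM of the listed rows (log axis) for each of the 8 Cyp2d rows in order along chromosome 15, with a point per library and a line at the mean of 3 libraries. In the 7 rows from Cyp2d10 to Cyp2d37-ps all PFOA points lie below all control points, and in Cyp2d26 they lie above.

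Cyp2d34 was the most abundant member in the control colon. It had control counts of 6243, 7455 and 9730 in replicates 1, 2 and 3, against 1960, 2821 and 2268 under PFOA. Every PFOA library was thus below the lowest control library, and the PFOA libraries were close to each other. Mean CPM was 3.22-fold lower in PFOA (log2 ratio -1.69 ± 0.24, adjusted p = 6.93e-04 by edgeR). Among the enzyme genes that fell, this was the smallest fold.

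Cyp2d12, another enzyme gene of the cluster, fell furthest among the enzyme genes. Its row had control counts of 1292, 1993 and 2597, against 97, 231 and 204 under PFOA. The highest PFOA library remained far below the lowest control library. Mean CPM was 10.8-fold lower (log2 ratio -3.44 ± 0.37, adjusted p = 2.76e-04 by edgeR).

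Cyp2d10 and Cyp2d9, the pair with the most similar coding sequences (92.5%), fell by similar amounts. Cyp2d12, which fell further, was nearly as similar in coding sequence to Cyp2d9 (92.1%) and Cyp2d10 (91.2%). Cyp2d10 had control counts of 1329, 910 and 1167, against 94, 362 and 290 under PFOA, 4.54-fold lower in mean CPM (log2 ratio -2.18 ± 0.44, adjusted p = 0.00246 by edgeR). Cyp2d9, the steroid hydroxylase, had control counts of 558, 1226 and 1064, against 68, 279 and 300 under PFOA, 4.38-fold lower (log2 ratio -2.13 ± 0.53, adjusted p = 0.00588 by edgeR). PFOA replicate 1 was the lowest library in both rows. The spread within the PFOA group was wide, with a coefficient of variation of 52.0% for Cyp2d10 and 56.0% for Cyp2d9, against 13.8% for Cyp2d34.

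Cyp2d26, the enzyme gene at the far end of the cluster, was the member that rose. It had control counts of 319, 343 and 402, against 895, 2035 and 1876 under PFOA. The control libraries were close together (coefficient of variation 8.02% in CPM), and PFOA replicate 1 was again the lowest PFOA library, though above every control. Mean CPM was 4.59-fold higher in PFOA (log2 ratio 2.20 ± 0.30, adjusted p = 5.91e-04 by edgeR).

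The 3 rows named for pseudogenes fell as well. Pseudogenes give no working enzyme, but their RNA is counted like any other. Cyp2d41-ps had control counts of 1615, 1700 and 2163, against 97, 117 and 104 under PFOA, 16.7-fold lower (log2 ratio -4.06 ± 0.22, adjusted p = 3.92e-05 by edgeR), with the smallest variation within the PFOA group of the 8 rows (6.32%). Because this row spans several annotated genes, the protein-coding Cyp2d40 among them, which of them gave its reads was not tested.

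Cyp2d37-ps, which lies inside that span, had control counts of 587, 466 and 738, against 135, 201 and 190 under PFOA, 3.31-fold lower (log2 ratio -1.73 ± 0.25, adjusted p = 7.34e-04 by edgeR). Cyp2d34-ps was the faintest row, with control counts of 33, 63 and 67, against 6, 20 and 12 under PFOA, 4.22-fold lower (log2 ratio -2.06 ± 0.47, adjusted p = 0.00429 by edgeR). In CPM, PFOA replicate 1 was the lowest PFOA library in 7 of the 8 Cyp2d rows, those that fell and Cyp2d26 alike. The exception in CPM was Cyp2d41-ps, with 51.9, 54.9 and 48.4 in PFOA replicates 1, 2 and 3. Without that library the log2 fold changes of all 8 rows kept their sign and their edgeR call.

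By start position, the 7 rows that fell follow each other from Cyp2d10 to Cyp2d37-ps, and Cyp2d26 comes last. Of the rows that fell, that of Cyp2d41-ps reaches furthest, to 82782162, and the Cyp2d26 row begins at 82790101. The only other listed row within the span is Gm49431, an lncRNA on the plus strand (82621092 to 82661057). It overlaps the minus-strand Cyp2d34 row only where that row starts, and the 2 rows run away from each other. Gm49431 had control counts of 165, 157 and 128, against 41, 53 and 49 under PFOA (log2 ratio -1.62 ± 0.28, adjusted p = 0.00136 by edgeR). Its reads cannot be told apart from those of Cyp2d34 and Cyp2d41-ps where the rows overlap, if strand was not used in counting. Within 1 Mb on either side 3 further rows were listed, all before Cyp2d10 and all lower in PFOA. They are Gm17025, Csdc2 (a cold shock domain RNA-binding protein) and an unnamed assembled lncRNA 35.4 kb before Cyp2d10, with log2 fold changes of -1.38, -1.28 and -1.33. No listed row lay within 1 Mb after Cyp2d26.

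**Figure D3:**
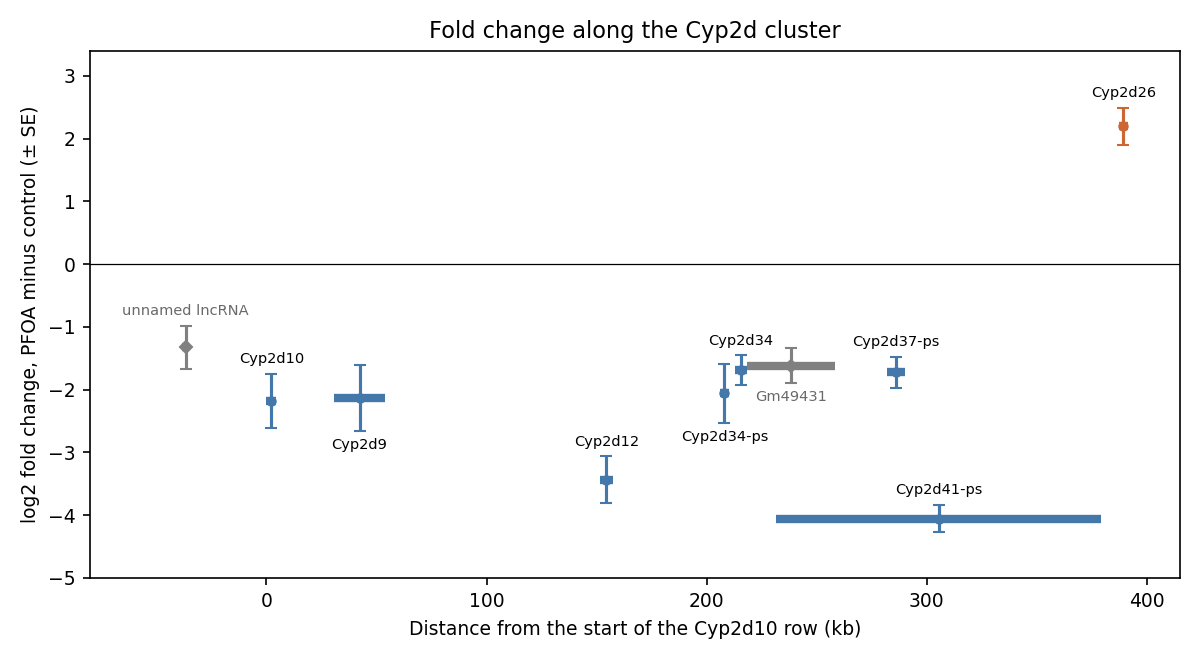
Fitted log2 fold change (PFOA minus control, bars ± SE, n = 3 per group) against distance in kb from the start of the Cyp2d10 row; thick lines give the extent of each row, and grey marks rows outside the family. The 7 rows that start before Cyp2d26 lie between -4.06 and -1.69, and the long Cyp2d41-ps row reaches close to Cyp2d26. Cyp2d26 at the right end is at 2.20.

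Summed over the 8 rows, Cyp2d counts came to 11976, 14156 and 17928 in control and 3352, 6066 and 5244 in PFOA. In control they made up 0.676%, 0.709% and 0.832% of the listed counts, and in PFOA 0.154%, 0.284% and 0.231%. The sum was 6921 ± 1144 CPM in control and 2360 ± 533 CPM in PFOA (SD, n = 3 per group), 2.93-fold lower. Over the 5 enzyme genes it was 2.59-fold lower, so the rows named for pseudogenes were not needed for the direction of the sum.

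The rise of Cyp2d26 together with the fall of the others changed the make-up of the Cyp2d counts. Cyp2d26 made up 2.66%, 2.42% and 2.24% of them in control and 26.7%, 33.5% and 35.8% in PFOA. The share of Cyp2d34 was 52.1%, 52.7% and 54.3% in control and 58.5%, 46.5% and 43.2% in PFOA, and the groups overlapped. That difference of -3.61 percentage points was -8.14 without PFOA replicate 1, where the groups no longer overlapped, -2.16 without PFOA replicate 2 and -0.53 without PFOA replicate 3. Cyp2d12 went from 13.1% ± 2.03 to 3.53% ± 0.55, Cyp2d41-ps from 12.5% ± 0.84 to 2.27% ± 0.54 and Cyp2d10 from 8.01% ± 2.67 to 4.77% ± 1.71 (SD, n = 3 per group), without overlap. Without control replicate 1 the difference of Cyp2d10 shrank from -3.24 to -1.70 percentage points. These shares do not depend on how libraries are scaled. With 3 libraries against 3, the two-sided exact permutation test cannot go below p = 0.1, which Cyp2d26, Cyp2d12, Cyp2d41-ps and Cyp2d10 reached (adjusted p = 0.2 over 8 rows). The shares of Cyp2d9, Cyp2d34-ps, Cyp2d34 and Cyp2d37-ps overlapped between the groups (exact permutation p = 0.2, 0.2, 0.5 and 0.5). When counts were first divided by row length, none of these 4 shares overlapped (exact permutation p = 0.1 each, the smallest possible), and the difference was -3.55 percentage points for Cyp2d9, -0.40 for Cyp2d34-ps, -17.4 for Cyp2d34 and -0.65 for Cyp2d37-ps. By counts, leaving out single libraries gave differences of -3.18 to -1.18 points for Cyp2d9 (the smallest without control replicate 2, then -1.26 without PFOA replicate 1), against -2.30 with all libraries. For Cyp2d37-ps the range was -0.85 (without control replicate 2) to -0.05 (without control replicate 1), against -0.45, and also -0.28 without PFOA replicate 2.

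**Figure D4:**
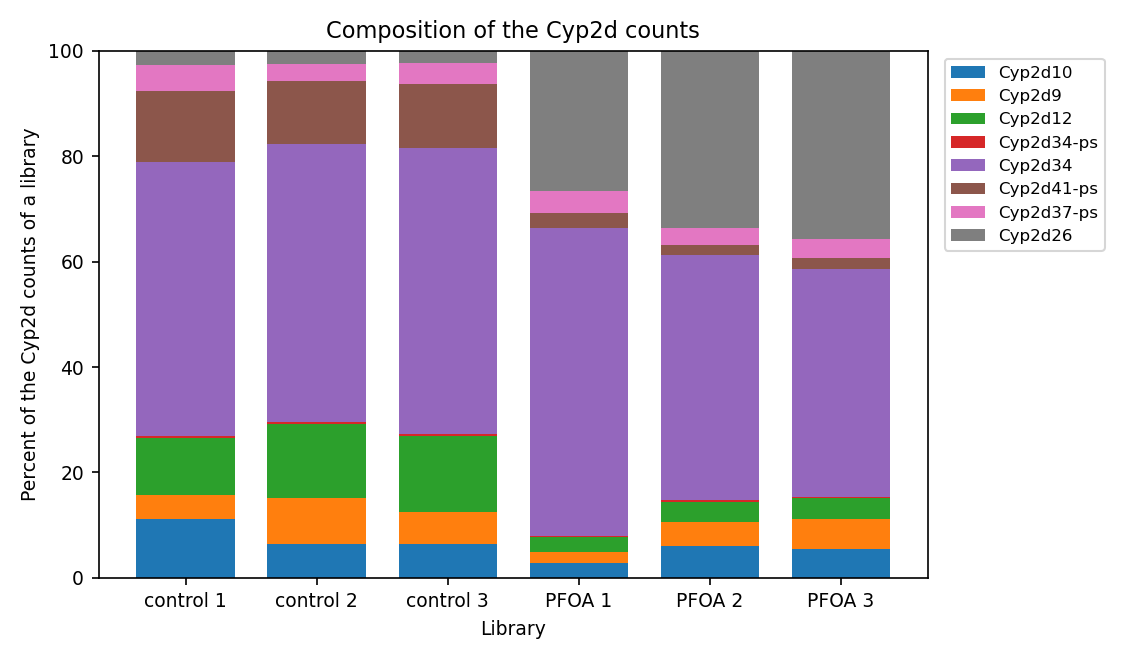
Percent of all Cyp2d counts of a library (stacked bars adding to 100) taken by each of the 8 rows, for the 3 control and 3 PFOA libraries. Cyp2d26, at the top of each bar, takes 2.24% to 2.66% in control and 26.7% to 35.8% in PFOA.

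Set against Cyp2d34 within the same library, the members differed. Counts of Cyp2d26 were 5.11%, 4.6% and 4.13% of those of Cyp2d34 in control and 45.7%, 72.1% and 82.7% in PFOA. Counts of Cyp2d12 were 20.7%, 26.7% and 26.7% of Cyp2d34 in control and 4.95%, 8.19% and 8.99% in PFOA, and those of Cyp2d41-ps 22.2% to 25.9% in control and 4.15% to 4.95% in PFOA. For Cyp2d9, Cyp2d10, Cyp2d34-ps and Cyp2d37-ps the ratio to Cyp2d34 overlapped between the groups. The Cyp2d37-ps ratio was 6.25% to 9.40% in control and 6.89% to 8.38% in PFOA. By exact permutation test the ratios without overlap had p = 0.1, the smallest this design allows (adjusted p = 0.2 over 8 ratios).

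Per kilobase of row length, which allows levels to be compared between genes, Cyp2d34 led the control libraries at 1012, 1200 and 1467 CPM per kb. Next came Cyp2d10 (175 to 258), Cyp2d12 (133 to 248), Cyp2d9 (86.0 to 188) and Cyp2d41-ps (117 to 145 CPM per kb). Neighbours in this order overlap, while Cyp2d10 lay above Cyp2d41-ps in all control libraries. Cyp2d26 was at 86.6 to 101 CPM per kb, a range that overlaps that of Cyp2d9, and Cyp2d37-ps and Cyp2d34-ps lay below it, at 32.6 to 48.3 and 10.6 to 20.1 CPM per kb. In PFOA Cyp2d26 (267, 533 and 487 CPM per kb) and Cyp2d34 (349, 442 and 352 CPM per kb) were the highest, with overlapping ranges. Cyp2d26 stood above Cyp2d34 in PFOA replicates 2 and 3 and below it in PFOA replicate 1. All other members were at no more than 67.9 CPM per kb in PFOA. The deposited lengths include assembled transcripts, so these levels are approximate for the Cyp2d41-ps, Cyp2d37-ps and Cyp2d12 rows.

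The rest of the P450 superfamily had 18 listed rows. Of 14 tested, 10 rose and 4 fell, where 50% of all tested rows rose and 50% fell. Their median log2 fold change was 1.83, against -2.09 for Cyp2d and -0.03 over all tested rows. The rows that fell were Cyp2f2, Cyp2a12, Cyp2c23 and the merged row of Cyp2c67 and Cyp2c68. Cyp2f2, a P450 that activates inhaled aromatic compounds in the airway, had control counts of 954, 801 and 908, against 16, 56 and 73 under PFOA, 18.3-fold lower (log2 ratio -4.19 ± 0.48, adjusted p = 3.45e-04 by edgeR). Its log2 fold change was close to that of Cyp2d41-ps. In CPM, PFOA replicate 1 was the lowest PFOA library of Cyp2f2, as in most Cyp2d rows but not in Cyp2d41-ps. Cyp2a12, a liver steroid hydroxylase, had control counts of 14, 15 and 17, against 3, 1 and 1 under PFOA.

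Those that rose include Cyp4b1, an enzyme that hydroxylates fatty acids, with control counts of 39, 53 and 34, against 748, 3433 and 3596 under PFOA. Cyp2c55, an arachidonic acid epoxygenase of the large intestine, had control counts of 2383, 8647 and 3163, against 77437, 42284 and 48636 under PFOA, 12.4-fold higher. In Cyp4b1 PFOA replicate 1 was the lowest PFOA library, as in Cyp2d26, while in Cyp2c55 it was the highest. Cyp3a44 rose from 0, 8 and 1 counts to 184, 557 and 665. Cyp2c65 had a log2 fold change of 5.84, Cyp2c66 had control counts of 0, 1 and 0, against 335, 94 and 136 under PFOA, and Cyp3a25 had 0 in every control library and 17, 17 and 47 in PFOA. The 4 rows too low to test had at most 31 counts in any library.

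**Figure D5:**
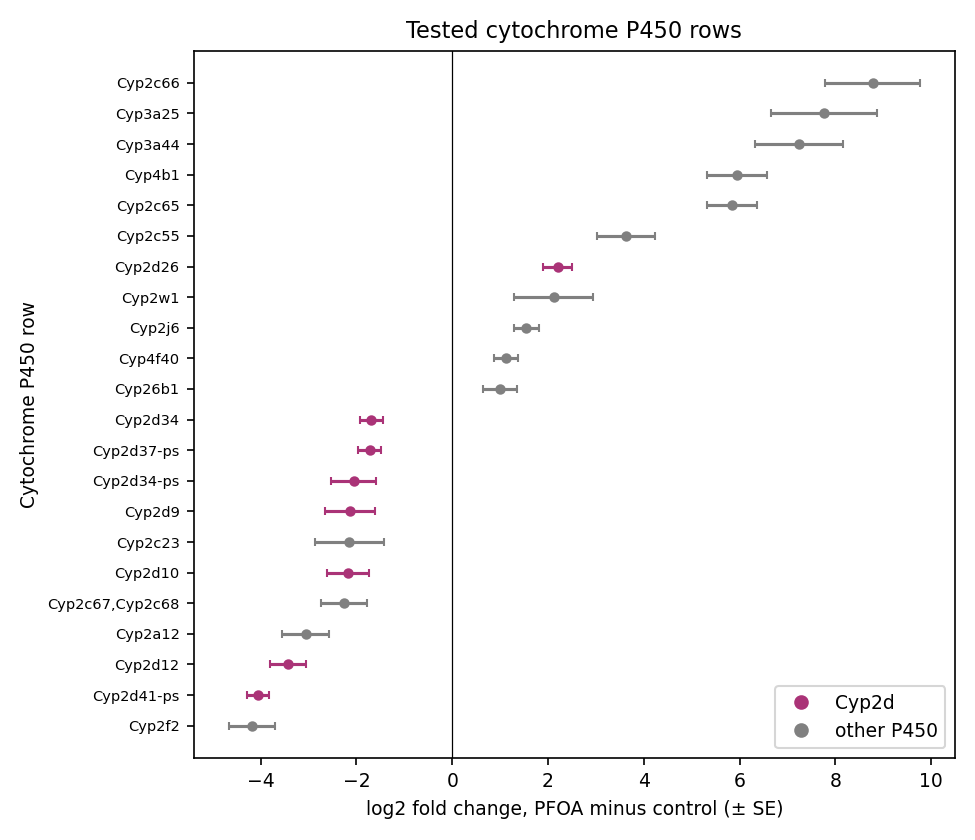
Fitted log2 fold change (PFOA minus control, bars ± SE, n = 3 per group) of the 22 tested cytochrome P450 rows, Cyp2d in purple and others in grey. Of the Cyp2d rows 7 lie left of 0 and Cyp2d26 lies right of it at 2.20; of the others 4 lie left and 10 right. For Cyp2c66 and Cyp3a25, with at most 1 control count, the fitted value depends on the prior count edgeR adds.

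None of 22 genes for P450 redox partners and haem supply, Por among them, had a row. Of 43 nuclear receptors and liver- or gut-enriched transcription factors 9 had a row. Of 8 tested 6 rose and 2 fell (50% of all tested rows rose and 50% fell). Ppara, the fatty acid sensor, had control counts of 1708, 1643 and 1758, against 7039, 10115 and 9728 under PFOA. Pparg, its relative, and Nr1h4, the bile acid receptor, rose 4.19-fold and 3.29-fold in mean CPM. Foxa2, a forkhead factor of gut and liver, fell 4.43-fold. Nr1i3, the receptor CAR that switches on drug-metabolising P450 genes, was singled out after its values were seen and had control counts of 182, 175 and 162, against 62, 16 and 7 under PFOA (log2 fold change -2.50; edgeR adjusted p = 0.011). Hnf4a and Nr1i2 (PXR) have no row.

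Drug-metabolising enzymes outside P450 (conjugating enzymes, carboxylesterases and oxidoreductases) had 22 tested rows, of which 17 rose and 5 fell (median log2 fold change 1.83). Of all tested rows 50% rose and 50% fell. Ces1g and Ces1f, carboxylesterases, had log2 fold changes of 6.35 and 4.70, and the merged row of Ugt2b5 and Ugt2b38 (glucuronosyltransferases) had 7.69. Adh1, an alcohol dehydrogenase, fell by 3.63 on the log2 scale, from 30149, 19641 and 23320 counts to 1762, 1798 and 2198. Summed over the list, the level was 22958 to 26017 CPM in control and 35878 to 49023 CPM in PFOA.

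Markers of colon regions and of other tissues moved with the groups too. Of 20 genes of the distal colon epithelium 15 had a row, and 13 fell and 2 rose (50% of all tested rows fell and 50% rose). Their summed level was 37645 to 48906 CPM in control and 3911 to 10714 CPM in PFOA. Slc26a3, also in this list, had a mean of 25573 CPM in control and 5532 CPM in PFOA. Atp12a, a proton pump, had control counts of 9456, 14594 and 22953, against 98, 157 and 130 under PFOA, and Hoxb13, a homeobox factor of the hindgut, 9884, 5730 and 7988 against 0, 6 and 3. Evx2 was at 0 in all PFOA libraries, and Hoxd13 had 1, 0 and 0 counts there. Of 20 genes of the proximal colon epithelium 13 are in 11 rows, of which 9 rose and 2 fell, at 25592 to 36717 CPM in control and 64070 to 148317 CPM in PFOA. Cyp2c55 and Cyp2c65, already given among the P450 rows, are in this list too. Much of the summed PFOA level came from Car1 and Cyp2c55, with means of 36245 and 27962 CPM in PFOA. The 2 rows that fell were Sycn and Prdx6. Sycn, with the smallest p of the list, had control counts of 15214, 16163 and 20419, against 420, 808 and 881 under PFOA. Prdx6 went from a mean of 11829 CPM in control to 3610 CPM in PFOA. The part of the colon sampled is not labelled, and the part of these differences in the Cyp2d values was not tested. In bulk tissue, fewer cells of a type and less RNA per cell cannot be told apart.

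Since Cyp2d genes are strongly expressed in liver, hepatocyte markers were looked up. Of 33, 5 had a row and 2 rose and 2 fell among 4 tested, at 567 to 680 CPM in control and 874 to 4497 CPM in PFOA. Apob, the apolipoprotein of chylomicrons that intestine also makes, rose from a mean of 302 to 2051 CPM. Alb (albumin), a main product of hepatocytes, had control counts of 38, 46 and 20, against 0, 0 and 1 under PFOA. Ttr (transthyretin), also on the hepatocyte list, had control counts of 961, 293 and 518, against 53, 16 and 28 under PFOA. Its mean CPM was 17.2-fold lower (adjusted p = 9.10e-04 by edgeR). Ambp, the other tested row of the list, rose from 6, 14 and 8 counts in control to 18, 21 and 36 under PFOA. Its log2 fold change was 1.44 (adjusted p = 0.0133 by edgeR). Small intestinal enterocyte genes had 6 rows that rose and 3 that fell among 9 tested (50% of all tested rows rose and 50% fell). Of 13 kidney proximal tubule genes 2 had a row, and only Cubn was tested, with control counts of 42, 39 and 51, against 121, 396 and 583 under PFOA. Their part in the Cyp2d values was not tested.

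Cyp2d9 is sex-dependent in liver and the labels give no sex, so sex-linked genes were counted. Of 38 sex-biased liver genes 6 had a row, and the 5 tested all rose (50% of all tested rows rose). The list was not split by the sex in which a gene is higher, so this count gives no direction of sex. Of 8 sex chromosome genes Zfy1 alone had a row, with control counts of 0, 6 and 0, against 33, 16 and 17 under PFOA, while Xist, Ddx3y, Uty, Kdm5d and Eif2s3y had none. Its part in the Cyp2d9 value was not tested.

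The rows most like the summed Cyp2d level over the 6 libraries, by Pearson's r of log2(CPM + 1) among 1292 named rows tested, were Barx2, a homeobox factor (r = 0.996), Myo5c, a class V myosin of epithelia (r = 0.993), Scnn1a, the alpha subunit of the epithelial sodium channel (r = 0.992), Hepacam, an adhesion molecule (r = 0.991), and Capn13, a calpain protease (r = 0.99). All 5 fell in PFOA and were lowest in PFOA replicate 1. Barx2 had few counts, 12, 16 and 17 in control and 2, 5 and 4 in PFOA, so its r is imprecise. For Cyp2d26 the closest were Bche (butyrylcholinesterase), Sdk2, Hmcn2, Mfap3l and Depdc7, with r between 0.993 and 0.998. These points share libraries and a selection for group differences, so high values are common: the median positive r was 0.910 for the sum and 0.891 for Cyp2d26.

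Within the groups, after the group means were taken off, the closest named rows to the summed level were Gm42449 (r = 0.995), 1810006J02Rik (r = 0.991), Platr26 (r = 0.989), Astn2 (r = 0.987) and Slc17a2 (r = 0.977). The last 4 of these rose in PFOA while the sum fell. Several had few counts in control: 3, 4 and 8 for 1810006J02Rik, 1, 3 and 5 for Platr26, and 0, 1 and 4 for Slc17a2. For Cyp2d26 they were St3gal6, Depdc7, Rhbdl3, Gm13657 and Capn13, with r between 0.992 and 0.998, and St3gal6 and Capn13 fell while Cyp2d26 rose. Among the members, deviations of Cyp2d26 from its group means ran with those of Cyp2d9 (r = 0.912), Cyp2d10 (r = 0.909), Cyp2d12 (r = 0.880) and Cyp2d34-ps (r = 0.811). The r was 0.639 with Cyp2d37-ps, 0.522 with Cyp2d34 and 0.209 with Cyp2d41-ps. All of these members fell in PFOA while Cyp2d26 rose. PFOA replicate 1 was the lowest PFOA library in CPM in each of them except Cyp2d41-ps, and in Cyp2d26. These values rest on 6 libraries and are descriptions.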

How the data were processed

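Colon RNA of 3 control and 3 PFOA libraries was sequenced from SMARTER mRNA-Seq libraries, per the labels' protocols. The authors deposited a table of raw read counts per gene row with gene names, positions and row lengths. HISAT2, HTSeq and the mm10 build are named in the submitters' processing notes, without versions or roles. The sources used here do not give the assembler of the loci, strand use, multi-mapping treatment or how rows were picked for the table.

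The whole table went into edgeR 4.0.16 under R 4.3.3. Of 2033 rows 1608 passed filterByExpr and gave the TMM factors. The quasi-likelihood test (glmQLFit, glmQLFTest) of PFOA against control was two-sided and had no covariate, and p-values were adjusted by Benjamini-Hochberg at 0.05. The standard error is the absolute log2 fold change divided by the square root of F. The step was tested on simulated data. CPM divides counts by a library's listed total times its TMM factor, and CPM per kb divides them by the deposited row length. Replicates of a group correlated at 0.951 to 0.984 in log2 CPM, and no pair agreed within sampling noise (smallest chi-square per degree of freedom 22.4). Listed counts per library ranged from 1771120 to 2269892, and their number limits the precision of low rows.

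Coding sequences and windows came from GENCODE M21 transcripts. Coding sequences were aligned in pairs with Biopython 1.88 (match 1, mismatch -1, gap opening -3, gap extension -1). Promoters came from RefSeq (GRCm38.p6). DESeq2 1.42.0, limma-voom (limma 3.58.1), other scalings and filters, a replicate block and each library left out in turn were alternatives.

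The members, the gene lists and the tests were chosen with earlier results of these data known. Named genes were all Cyp2d rows, listed rows within 1 Mb of them, up to 8 other P450 rows of largest fold, up to 4 rows of smallest p per list, and the 5 rows most like the summed Cyp2d counts over the 6 libraries and within groups. Cyp2d26 was added to the last measure after its values were seen. The same holds for naming Nr1i3, Evx2, Hoxd13, Cyp2c23, Prdx6, Car1 and the Cyp2c67 row. Of the promoter motifs searched, 1 is not reported here. Counts are given for the lists the report uses, and the other marker lists are counted in the closing section.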

Additional observations from a re-analysis of the deposited data

How the results depend on the processing

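All 15 alternatives run for each Cyp2d row kept its direction and its side of the threshold, with an adjusted p of at most 0.0161 (Cyp2d9). Because rows were selected for a difference, this is no evidence of an effect. The summed Cyp2d ratio of PFOA over control, 0.341, was 0.452 without the rows that merge several gene names, and 0.306 to 0.382 with each library left out in turn. With each library left out, 8 to 10 other P450 rows were called higher and 3 to 4 lower. The make-up of the tested rows changed at these settings. Their median log2 fold change was 0.77 to 0.91 without a control library and -1.01 to -0.91 without a PFOA library. The share of all rows called higher or lower was not counted there, so these P450 counts have no background. Scaling by library totals alone moved the median of all rows by -0.20 on the log2 scale. Same-numbered libraries of the groups had correlated deviations of r = 0.114, -0.03 and 0.102, and not every library correlated best with its own number, so the numbers were not taken as a pairing. With a replicate block in the fit, 7 Cyp2d rows were called lower and 1 higher, as without it. Of the other P450 rows 10 were called higher and 3 lower. The share of all rows called was not counted with the block, where the median log2 fold change of all tested rows was -0.05. Rows with few counts, Cyp2d34-ps above all, are limited by their depth.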

Other observations

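Marker lists not used in the report gave these counts of tested rows, where 50% of all tested rows were higher in PFOA and 50% lower. PFOA was higher in 2 rows of colonocyte genes and lower in 4. The same counts were 5 and 5 for goblet cell, 3 and 3 for enteroendocrine, and 1 and 1 for Paneth cell genes. T and NK cell genes had 5 rows, all higher (41 to 69 CPM summed in control, 113 to 275 in PFOA), and adipocyte genes 2, both higher. Red blood cell genes had 4 rows, all lower (562 to 1485 CPM in control, 123 to 211 in PFOA). Smooth muscle, fibroblast, endothelial and exocrine pancreas genes had 1 row each, all lower, and enteric neuron and glia genes 1, higher. Tuft, stem, B and plasma, and myeloid cell genes had none. Among P450 families, those of xenobiotic metabolism apart from Cyp2d had 7 tested rows higher and 4 lower, and those of fatty acid, eicosanoid, sterol, retinoid and steroid metabolism 3 higher and 0 lower. The part of these differences in the Cyp2d values was not tested.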
